A study of Mus musculus with 16 samples.

Results

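Platelet-derived growth factor (PDGF) signalling is described here through its 2 receptor genes, Pdgfra and Pdgfrb, and its 4 ligand genes, Pdgfa, Pdgfb, Pdgfc and Pdgfd. Their rows were taken by gene symbol, and the 6 genes were chosen with earlier results of these data known. All 6 were found among the 23100 genes of the count table. RNA was sequenced from mouse embryonic fibroblasts, connective tissue cells taken into culture from C57BL/6 embryos at day E13.5. Wildtype cells were Zac+/+ and mutant cells Zac+/-, where Zac1 is the former name of Plagl1, an imprinted gene for a zinc finger transcription factor. There were 4 cell lines, 2 per genotype (replicates 1 and 2), all kept in DMEM with 10% fetal bovine serum. Each line was harvested while proliferating, at day 2 in vitro, and while quiescent, at days 8, 10 and 12, so that 16 libraries fall into 8 combinations of genotype and day, each with 2 lines. Replicate 1 of each genotype carries the letter I and replicate 2 the letter L, and the titles of the mutant lines carry the code KOpat. The labels explain neither the letters nor the code. Which part of Plagl1 is mutated, and whether the lines of a genotype came from separate embryos, was not stated in the labels. The p-values therefore measure the spread between these lines or, in fits with a term for the line, the spread that remains within them.

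PDGFs are dimeric growth factors that drive migration and division of fibroblasts and other mesenchymal cells, and serum contains PDGF released from platelets. The receptors are tyrosine kinases on the cell surface that pair up when a ligand binds. PDGFRα takes dimers of PDGF-A, PDGF-B and PDGF-C, and PDGFRβ takes chiefly PDGF-B and PDGF-D. PDGF-A and PDGF-B are trimmed by furin-like proteases before secretion, whereas PDGF-C and PDGF-D are secreted as latent forms whose CUB domain must be cut off outside the cell. Activated receptors signal through RAS and ERK kinases, PI3 kinase and phospholipase C.

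Libraries held between 28079241 and 61039793 counts, and 3 counts, the limit that a count of 0 allows, correspond to 0.0491 to 0.107 CPM (read counts scaled to a common library size). Plagl1 itself was lower in mutant lines, with a log2 difference in proliferation of -2.31 (SE 0.16, adjusted p = 8.50e-04 by edgeR) and at quiescence of -1.88 (SE 0.15, adjusted p = 0.00297 by edgeR). All 14 fibroblast markers were measured, and no marker was at 0. Their summed level was 23515 to 26451 CPM at day 2 and 48165 to 67360 CPM at quiescence. Gene by gene, 10 were higher and 4 lower at quiescence in each genotype. In wildtype the median log2 was 0.96, against 0.05 over all genes. Fn1, the highest marker, went from a median of 10286 to 20093 CPM, whereas the medians of Vim, Thy1, S100a4 and Twist2 fell. The summed level of 8 proliferation markers was 1567 to 1836 CPM at day 2 and 274 to 538 CPM at quiescence. Markers of other cell types were summed as well. Endothelial markers summed to 15.8 to 34.2 CPM in all (Tie1 and Sox17 at 0), platelet markers to 6.92 to 17.9 CPM (Gp9 and Gp6 at 0), macrophage markers to 10.9 to 504 CPM, and pericyte and smooth muscle markers, many of which fibroblasts share, to 6216 to 12553 CPM (Higd1b at 0). Glial and neural markers summed to 24.0 to 102 CPM, skeletal muscle markers to 0.911 to 6.27 CPM and epithelial markers to 1.68 to 16.05 CPM. In these bulk cultures a change in the number of cells of a type and a change in RNA per cell cannot be told apart.

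The receptors were the members called between growth states. In wildtype lines Pdgfra was 4.39 times and Pdgfrb 2.30 times as high at quiescence as in proliferation, and in mutant lines 3.41 and 2.08 times. Both receptors were called higher in both genotypes, while 0 of 4 ligands was called in either genotype taken alone. In wildtype DESeq2 also called Pdgfa lower (adjusted p = 0.0485), and Pdgfc was called higher when a mutant line was left out of the fit (edgeR adjusted p = 0.0352 without replicate 1 and 0.0276 without replicate 2). In mutant lines Pdgfc was called higher without mutant replicate 1 (edgeR adjusted p = 0.0384). Among all 15740 genes tested, 47.6% were called in wildtype (23.9% as higher) and 42.1% in mutant lines (21.1% as higher), so a call as such is common in this comparison. A gene was called where the edgeR adjusted p was under 0.05.

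**Figure D1:**
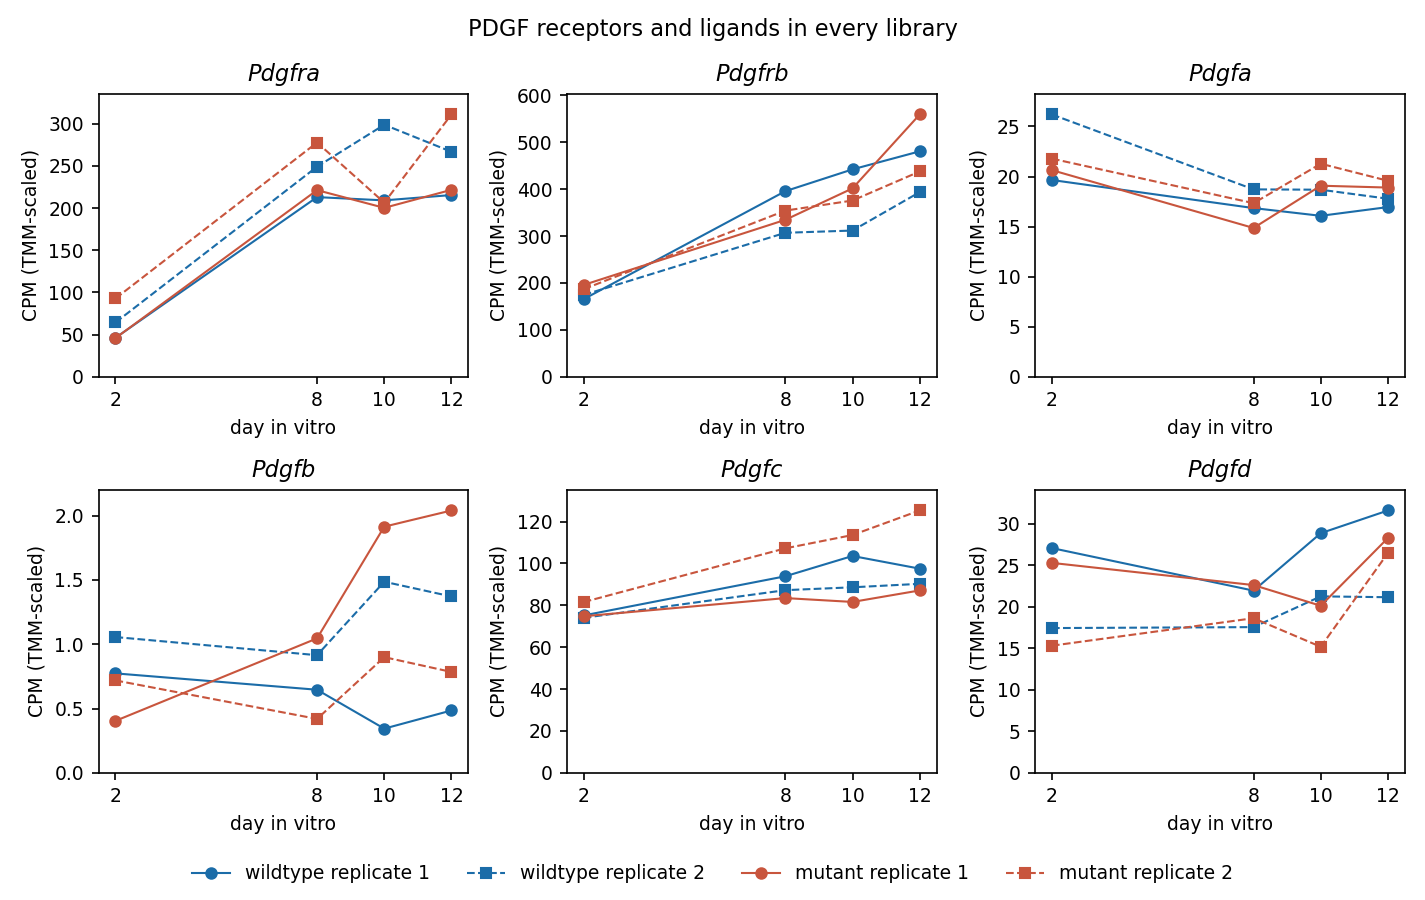
Level of each PDGF gene in every library (y axes, CPM with TMM scaling, each starting at 0) against the day in vitro (x axes), with 1 line per cell line, coloured by genotype and marked by replicate. Pdgfra and Pdgfrb stand higher at days 8, 10 and 12 than at day 2 in all 4 lines, whereas Pdgfb differs most between lines.

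Pdgfra encodes PDGFRα, a receptor found on most mesenchymal progenitors and fibroblasts. Its state difference in wildtype was the largest of the 6 members, and the 250 bases before its RefSeq transcription start (GRCm38.p6, chr5:75152001-75152250, plus strand) are shown with those of Pdgfc and Pdgfd, 2 ligands that were higher by little or not at all. Capitals mark the single match to any of the motifs searched on both strands.
Pdgfra: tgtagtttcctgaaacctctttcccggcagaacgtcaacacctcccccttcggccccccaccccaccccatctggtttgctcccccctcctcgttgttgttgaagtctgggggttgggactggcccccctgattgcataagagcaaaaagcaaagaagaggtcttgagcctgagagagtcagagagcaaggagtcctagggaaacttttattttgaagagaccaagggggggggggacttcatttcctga
Pdgfc (chr3:81036166-81036415, plus strand): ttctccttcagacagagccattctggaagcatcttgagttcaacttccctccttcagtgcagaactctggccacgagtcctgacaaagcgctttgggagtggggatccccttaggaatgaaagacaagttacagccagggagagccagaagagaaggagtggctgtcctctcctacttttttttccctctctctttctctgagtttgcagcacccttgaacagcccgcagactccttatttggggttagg
Pdgfd (chr9:6168236-6168485, plus strand): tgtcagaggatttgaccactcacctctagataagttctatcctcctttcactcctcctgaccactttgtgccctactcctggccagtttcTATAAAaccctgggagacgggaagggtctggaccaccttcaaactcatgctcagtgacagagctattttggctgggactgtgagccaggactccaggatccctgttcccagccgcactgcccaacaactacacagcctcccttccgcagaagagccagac
The motifs were the TATA box TATAAA (held by 12.4% of 32851 RefSeq windows of this length), the CCAAT box CCAAT (33.8%), the GC box GGGCGG (32.7%), the E-box CACGTG (6.02%), the E2F letters TTTGGCGC or TTTCCCGC (1.3%) and GGGGCCCC, a sequence bound by ZAC1 (0.889%). No match was found in the Pdgfra and Pdgfc windows, and the Pdgfd window held TATAAA starting 160 bases before the start. Both annotated starts of Pdgfa, on the minus strand, had GC box letters upstream. The E2F letters GCGGGAAA stood 108 bases before the downstream one of these starts (window chr5:138994282-138994531). These windows are not shown because annotated exons overlap them, and Pdgfrb and Pdgfb were not searched. GC content was 54.4% for Pdgfra, 50.8% for Pdgfc, 53.6% for Pdgfd and 66.4% and 72.4% for Pdgfa, against a median of 52.4% over all windows. A match here is a match of letters and says nothing of binding.

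At day 2, Pdgfra stood at 46.3 and 64.4 CPM in the 2 wildtype lines and at 45.9 and 92.9 CPM in the 2 mutant lines, replicate 1 first here and for the other genes. At days 8, 10 and 12 the levels were 213, 209 and 216 CPM in wildtype replicate 1, 249, 299 and 267 CPM in wildtype replicate 2, 221, 200.3 and 222 CPM in mutant replicate 1 and 278, 206 and 311 CPM in mutant replicate 2. Every quiescent library lay above every proliferating one, with a gap from 92.9 to 200.3 CPM between them. The day 2 levels of the mutant lines differed more from each other than the genotypes did. Within single lines the quiescent level was 2.22 to 4.83 times the day 2 level, with the smallest ratios in mutant replicate 2. In the summed libraries the state difference on the log2 scale was 2.14 (SE 0.35, edgeR adjusted p = 0.00292) in wildtype and 1.77 (SE 0.35, edgeR adjusted p = 0.00731) in mutant lines. Without wildtype replicate 1 the wildtype value was 2.07 and no longer passed (edgeR adjusted p = 0.0598). With all lines and the line as a block, the state difference was 2.15 (SE 0.17, edgeR adjusted p = 4.46e-07) in wildtype. In mutant lines it was 1.85 (SE 0.17, edgeR adjusted p = 2.11e-06). An antisense gene, Gm42802, shares 4.55% of the merged exon bases of Pdgfra in the reference annotation, and how the counting treated strand was not stated.

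Pdgfrb encodes PDGFRβ, the receptor best known from pericytes and smooth muscle and also carried by fibroblasts. Its day 2 levels were close together, at 166 and 175 CPM in the 2 wildtype lines and 196 and 187 CPM in the 2 mutant lines. At days 8, 10 and 12 the values were 396, 442 and 480.5 CPM in wildtype replicate 1, 307, 312 and 394 CPM in wildtype replicate 2, 335, 402 and 559 CPM in mutant replicate 1 and 354, 376 and 438 CPM in mutant replicate 2. All quiescent libraries lay above all proliferating ones, and in each line the day 12 value was the highest of the 4 harvests. The state difference on the log2 scale was 1.20 (SE 0.13, edgeR adjusted p = 7.16e-05) in wildtype and 1.06 (SE 0.13, edgeR adjusted p = 1.98e-04) in mutant lines. With the line as a block it was 1.19 (SE 0.14, edgeR adjusted p = 1.72e-05) and 1.06 (SE 0.14, edgeR adjusted p = 5.52e-05). The summed pericyte and smooth muscle markers moved the other way, from 10527 to 12553 CPM at day 2 to 6216 to 8749 CPM at quiescence. Most of that sum came from Acta2 and Tagln, with medians of 6369 and 4227 CPM at day 2. At quiescence their medians were 4432 and 2461 CPM. Gene by gene, 8 of the 13 tested genes were higher and 5 lower in wildtype, with a median log2 of 0.26 against 0.05 over all genes. Within that list 5 of 13 tested genes were called higher in wildtype, among them Notch3 (log2 2.77), and 4 were called lower, among them the contractile genes Acta2 (-0.62) and Tagln (-0.87). Of all genes tested, 47.6% were called in wildtype (23.9% as higher). These 3 genes illustrate the list and were picked with their values known. The part of the list in the Pdgfrb result was not tested.

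Pdgfra made up a larger part of the receptor counts at quiescence. Of the reads counted on both receptor genes, Pdgfra took 21.8% (95% Clopper-Pearson interval 20.9 to 22.8) and 27.0% (26.2 to 27.7) at day 2 in wildtype replicates 1 and 2, and 19.0% (18.0 to 20.0) and 33.2% (32.5 to 34.0) in mutant replicates 1 and 2. At quiescence the share ran from 28.4% to 49.0% over 12 libraries, and it was higher in every quiescent harvest than at day 2 of the same line. Between lines the ranges overlapped, since the day 2 share of mutant replicate 2 exceeded the share of 3 quiescent libraries of other lines. The replicate 2 lines had the higher share at all 4 days in both genotypes. Over the summed quiescent libraries the share was 37.3% ± 4.30 in mutant and 38.6% ± 8.60 in wildtype lines (SD, n = 2, exact permutation p = 1.00, two-sided), and 2 lines against 2 cannot give a p under 0.333. Intervals cover counting error only. Counts favour the longer transcript, and per length of merged exons the mean share of Pdgfra was 15.02% in wildtype and 16.4% in mutant lines at day 2 and 25.9% and 24.5% at quiescence.

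**Figure D2:**
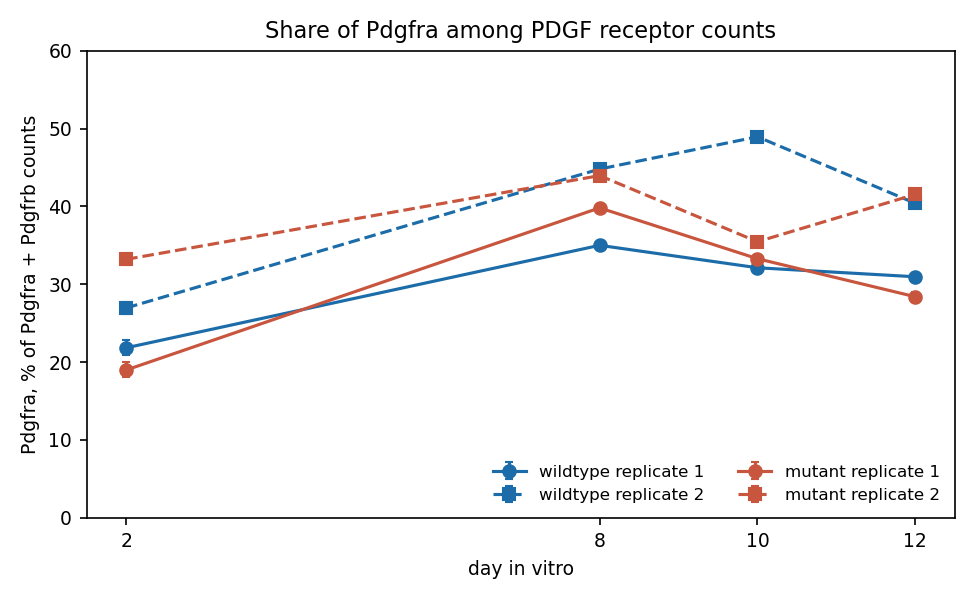
Pdgfra counts as a percent of Pdgfra plus Pdgfrb counts (y axis) by day in vitro (x axis) in each of 4 cell lines, with bars for the 95% Clopper-Pearson interval, which are mostly smaller than the symbols. Shares lie between 19.0% and 33.2% at day 2 and between 28.4% and 49.0% at days 8 to 12, and the replicate 2 lines lie above the replicate 1 lines of the same genotype on every day.

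Levels of different genes can be compared only per length, here as CPM per kilobase of merged exons. At quiescence Pdgfrb stood highest, with a median of 72.0 and a range of 56.0 to 102 CPM per kilobase over 12 libraries. Pdgfra followed at 22.1 (20.0 to 31.0) and Pdgfc at 18.1 (16.04 to 24.6), and the ranges of these neighbours overlapped. Pdgfd at 6.85 (4.82 to 10.0) and Pdgfa at 5.85 (4.77 to 6.82) came next and overlapped as well. Pdgfb was far below the rest at 0.218 (0.0826 to 0.490) CPM per kilobase. At day 2 the order was Pdgfrb (32.98), Pdgfc (14.7), Pdgfa (6.80), Pdgfd (6.78), Pdgfra (5.52) and Pdgfb (0.179), and the ranges of Pdgfa, Pdgfd and Pdgfra overlapped. With the longest coding transcript as the length, the quiescent medians were 32.4 for Pdgfra, 26.2 for Pdgfc, 8.85 for Pdgfa and 6.90 for Pdgfd, which put Pdgfa above Pdgfd. At day 2 they were 10.3 for Pdgfa, 8.10 for Pdgfra and 6.83 for Pdgfd, so the place of Pdgfra in the order at day 2 depends on the length used.

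**Figure D3:**
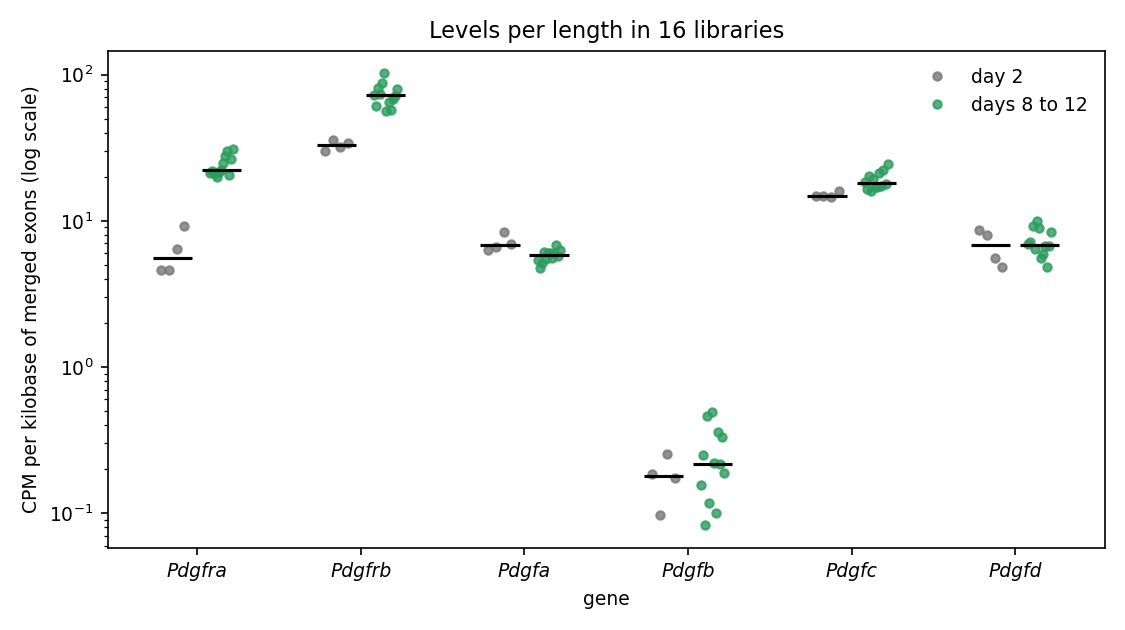
CPM per kilobase of merged exons (y axis, log scale) for each PDGF gene (x axis), with 1 point per library, grey for day 2 (4 libraries) and green for days 8 to 12 (12 libraries), and a bar at the median. Pdgfrb is highest in both states, Pdgfra lies with Pdgfa and Pdgfd at day 2 and with Pdgfc at quiescence, and Pdgfb lies below all others.

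Pdgfc, whose product PDGF-C is a latent ligand of PDGFRα, was the main ligand transcript. At day 2 it stood at 75.2 and 74.0 CPM in the 2 wildtype lines and at 74.8 and 81.6 CPM in the 2 mutant lines. At days 8, 10 and 12 the levels were 93.9, 104 and 97.5 CPM in wildtype replicate 1, 87.3, 88.6 and 90.3 CPM in wildtype replicate 2, 83.5, 81.6 and 87.1 CPM in mutant replicate 1 and 107, 114 and 125 CPM in mutant replicate 2. Each line was higher at all 3 quiescent harvests than at its own day 2, by 1.09 to 1.54 times. Per length, Pdgfc made up 49.5% to 57.2% of the 4 ligand transcripts at day 2 and 52.4% to 65.3% at quiescence. The log2 difference between states was 0.33 (SE 0.14, edgeR adjusted p = 0.0866) in wildtype and 0.35 (SE 0.14, edgeR adjusted p = 0.0794) in mutant lines, neither past the test. With both genotypes averaged, a contrast added after the values were seen, it was 0.34 (SE 0.10, edgeR adjusted p = 0.0164), where 59.3% of all genes were called. That call was lost without wildtype replicate 1 (edgeR adjusted p = 0.113) and without wildtype replicate 2 (0.0679). An antisense gene, Gm16000, shares 2.89% of the exon bases of Pdgfc.

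Pdgfd encodes PDGF-D, the latent ligand of PDGFRβ. Its day 2 levels were 27.1 and 17.4 CPM in the 2 wildtype lines and 25.3 and 15.3 CPM in the 2 mutant lines. At days 8, 10 and 12 they were 21.96, 28.9 and 31.6 CPM in wildtype replicate 1, 17.6, 21.3 and 21.2 CPM in wildtype replicate 2, 22.6, 20.1 and 28.3 CPM in mutant replicate 1 and 18.6, 15.2 and 26.5 CPM in mutant replicate 2. The states overlapped, and the replicate 1 lines were higher than the replicate 2 lines of the same genotype on every day. The log2 difference between states was 0.11 (SE 0.29, 95% interval -0.56 to 0.78, edgeR adjusted p = 0.789) in wildtype and 0.07 (SE 0.29, interval -0.60 to 0.75, edgeR adjusted p = 0.860) in mutant lines.

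Pdgfa encodes PDGF-A, a ligand of PDGFRα that many cell types make. At day 2 it stood at 19.6 and 26.2 CPM in the 2 wildtype lines and at 20.6 and 21.8 CPM in the 2 mutant lines. At days 8, 10 and 12 the levels were 16.8, 16.1 and 16.9 CPM in wildtype replicate 1, 18.7, 18.7 and 17.8 CPM in wildtype replicate 2, 14.9, 19.1 and 18.9 CPM in mutant replicate 1 and 17.3, 21.3 and 19.6 CPM in mutant replicate 2. Each line was lower at all 3 quiescent harvests than at its own day 2. The log2 difference was -0.38 (SE 0.15, edgeR adjusted p = 0.0647) in wildtype and -0.20 (SE 0.15, edgeR adjusted p = 0.330) in mutant lines. Averaged over both genotypes it was -0.29 (SE 0.11, edgeR adjusted p = 0.0418), a call that was lost without wildtype replicate 2 (edgeR adjusted p = 0.163), mutant replicate 1 (0.0909) or mutant replicate 2 (0.0868), and also without day 8 (0.0847) or with a filter on a mean of 1 CPM (0.0601). That averaged contrast was added after the values were seen, and 59.3% of all genes were called in it. In the reference annotation the antisense gene 6330403L08Rik shares 26.1% of the merged exon bases of Pdgfa. The Pdgfa counts are therefore uncertain where the counting ignored strand. The count table held no gene under the symbol 6330403L08Rik, so its level could not be checked.

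Pdgfb encodes PDGF-B, the ligand of both receptors that platelets, endothelial cells and macrophages are known to make. It was the only member near the detection limit, with 11 to 113 counts per library. At day 2 it stood at 0.773 and 1.06 CPM in the 2 wildtype lines and at 0.404 and 0.718 CPM in the 2 mutant lines. At days 8, 10 and 12 the levels were 0.646, 0.344 and 0.485 CPM in wildtype replicate 1, 0.914, 1.49 and 1.37 CPM in wildtype replicate 2, 1.05, 1.91 and 2.04 CPM in mutant replicate 1 and 0.419, 0.899 and 0.784 CPM in mutant replicate 2. At quiescence mutant replicate 1 and wildtype replicate 2 were the higher lines, and their values lay above those of the other line of the same genotype on each day. The log2 difference between states was -0.06 (SE 0.57, edgeR adjusted p = 0.948) in wildtype and 1.00 (SE 0.59, edgeR adjusted p = 0.204) in mutant lines.

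Macrophage markers divided the lines in the same way as Pdgfb. Their summed level over 12 genes at days 8, 10 and 12 was 194, 378 and 504 CPM in mutant replicate 1 and 121, 205 and 270.0 CPM in wildtype replicate 2. It was 29.6, 62.4 and 82.2 CPM in wildtype replicate 1 and 12.0, 74.2 and 34.6 CPM in mutant replicate 2. At day 2 the order was different, since mutant replicate 1 had the highest marker sum (107 CPM) and the lowest Pdgfb level. All 12 macrophage markers passed the filter on low counts, and all 12 were higher at quiescence in wildtype (median log2 1.51) and in mutant lines (1.87) with 0 called. Their part in the Pdgfb values was not tested. Of 12 endothelial markers 8 were tested, and in wildtype 2 were called higher at quiescence (Erg, up to 29.2 CPM, and Tek, up to 4.32 CPM) and 2 lower (Kdr, up to 15.8 CPM, and Emcn, up to 5.20 CPM). Over all genes tested, the shares called were 47.6% in wildtype (23.9% as higher) and 42.1% in mutant lines. The endothelial markers Pecam1 and Cdh5 stood at 0 to 0.298 CPM and 0 to 0.367 CPM, and Tie1 and Sox17 were at 0 in all libraries. Their part in the Pdgfb values was not tested either.

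Between genotypes, no PDGF gene was called. In proliferation 0 of 6 passed, against 0.00635% of all genes (1 of 15740, Plagl1 itself), and at quiescence 0 of 6 passed, again against 0.00635%. At an unadjusted p under 0.05, 451 genes passed in proliferation and 76 at quiescence, and none of the 6 was among them, with edgeR's adjusted p at 1.00 for each. The difference between genotypes in the response to quiescence was called for 0 of 6 members and for 0.00% of all genes (0 of 15740 by edgeR, 265 at an unadjusted p under 0.05, and 1 by DESeq2).

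The 95% intervals below come from the fit without a block on the replicate number. With that block, the SE at quiescence was 0.16 in place of 0.34 for Pdgfra. For Pdgfd it was 0.14 in place of 0.29, and for the other members it changed less. For Pdgfrb the mutant minus wildtype log2 difference was 0.03 (95% interval -0.27 to 0.32) at quiescence and 0.17 (-0.13 to 0.47) in proliferation. For Pdgfra it was -0.03 (-0.85 to 0.78) and 0.33 (-0.50 to 1.15). Among the ligands, Pdgfa stood at 0.07 (-0.27 to 0.41) and -0.11 (-0.46 to 0.23), and Pdgfc at 0.09 (-0.24 to 0.41) and 0.07 (-0.26 to 0.39). Pdgfd stood at -0.17 (-0.83 to 0.49) and -0.14 (-0.82 to 0.54), and Pdgfb at 0.38 (-0.87 to 1.63) and -0.68 (-2.04 to 0.68). The intervals of Pdgfrb, Pdgfa and Pdgfc were the narrowest, and those of Pdgfb the widest. In proliferation both mutant lines were above both wildtype lines for Pdgfrb and below them for Pdgfb, whereas the genotypes overlapped for the other 4 members. Neither difference was called, and with so few lines even full separation has a two-sided permutation p of only 0.333. How often the lines of all other genes separated in this way was not counted, so no genotype trend is read from these members. At quiescence the genotypes overlapped for all 6. The difference between genotypes in the state change was -0.36 (-1.52 to 0.79) for Pdgfra and -0.14 (-0.56 to 0.28) for Pdgfrb.

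**Figure D4:**
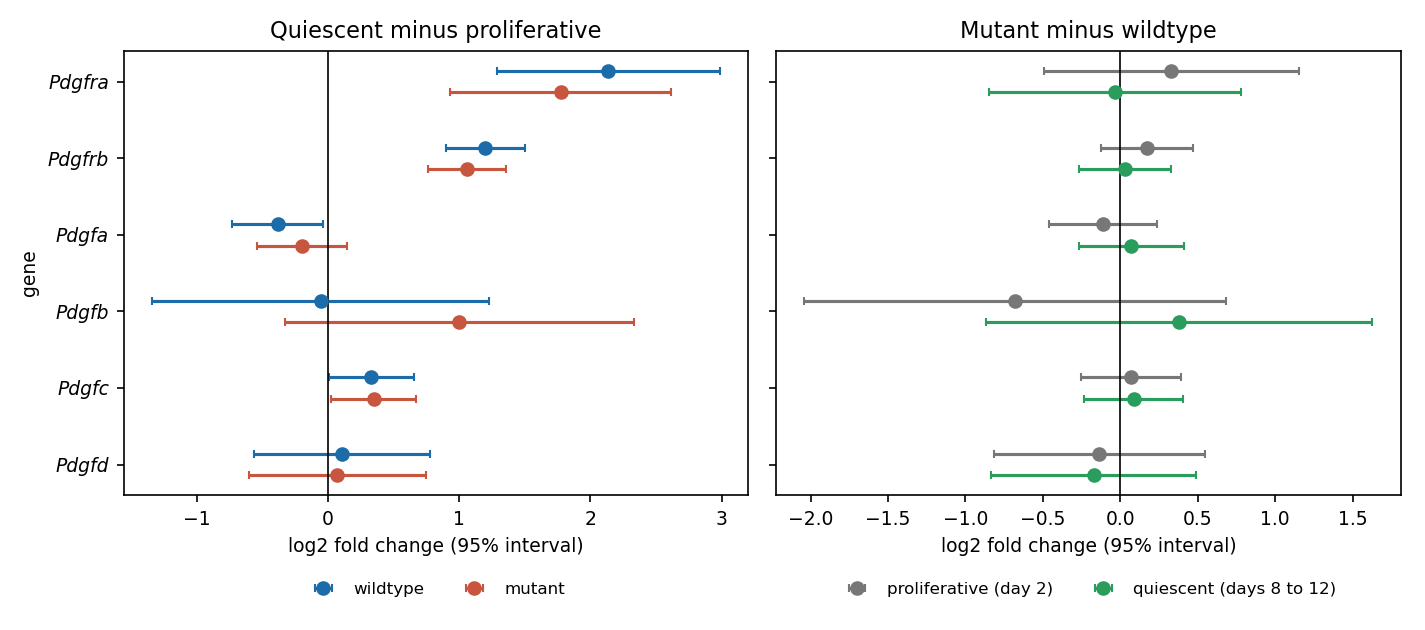
Log2 fold change (x axes) with its 95% interval for each PDGF gene (y axis), on the left for quiescent minus proliferative in wildtype and in mutant lines and on the right for mutant minus wildtype in each state, from the fit of 8 summed libraries. On the left the intervals of Pdgfra and Pdgfrb lie well above 0 in both genotypes, and on the right every interval crosses 0.

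Within quiescence, day 12 was compared with day 8 over both genotypes. Pdgfrb stood higher at day 12 in all 4 lines, at 1.21 and 1.28 times its day 8 level in wildtype replicates 1 and 2 and at 1.67 and 1.24 times in mutant replicates 1 and 2. Pdgfd moved likewise, at 1.44, 1.21, 1.25 and 1.42 times in the same lines. Without a term for the line, 0 of 6 members passed, against 3.12% of 15439 genes (482), and 2197 genes had an unadjusted p under 0.05. The same lines were harvested on both days, and with the line as a block Pdgfrb (log2 0.43, SE 0.10, edgeR adjusted p = 0.0154) and Pdgfd (log2 0.42, SE 0.11, edgeR adjusted p = 0.0322) were called, 2 of 6 against 6.11% of all genes. The values without the block were 0.43 (SE 0.12, edgeR adjusted p = 0.0803) and 0.42 (SE 0.20, edgeR adjusted p = 0.368). Pdgfra (0.09), Pdgfa (0.12), Pdgfc (0.11) and Pdgfb (0.60) were not called with or without the block. Of the 8 proliferation markers 7 were called lower at day 12 than at day 8 (median log2 -0.88), and their part in the Pdgfrb and Pdgfd values was not tested.

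Genes whose products process or bind the ligands were examined next. Of 9 genes for ligand processing and activation 5 rose and 2 fell in wildtype, with a median log2 of 0.98 against 0.05 over all genes tested, and the counts were the same in mutant lines. For this list and those below, the shares of all genes tested that were called are again 47.6% in wildtype (23.9% higher) and 42.1% in mutant lines (21.1% higher). Plat, the tissue plasminogen activator that cuts latent PDGF-C, rose 2.53-fold (log2 1.34, SE 0.12, edgeR adjusted p = 1.97e-05), from 45.5 to 116 CPM. Plau, the urokinase that cuts latent PDGF-D, fell by 0.63 on the log2 scale (SE 0.13, edgeR adjusted p = 0.00280). The proprotein convertases Pcsk5 (log2 1.67) and Pcsk6 (1.18) rose, whereas the convertase Furin, which trims PDGF-A and PDGF-B, fell by 0.78 on the log2 scale. Sparc, a matrix protein that binds PDGF-B, rose 2.38-fold to 6855 CPM, and Lox, a collagen crosslinking oxidase that can also act on PDGFRβ, was the fifth to rise (log2 0.98). Later in quiescence, Pcsk5 (log2 1.19) and Sparc (0.37) rose again between days 8 and 12, and Plat fell by 0.39 on the log2 scale.

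Co-receptors and receptor modulators went both ways. In wildtype 3 of 11 rose and 5 fell (median log2 -0.07), and in mutant lines 2 rose and 5 fell. Pdgfrl, a secreted receptor-like protein without a kinase domain, rose 11.1-fold from 3.46 to 38.9 CPM, which is 3.48 on the log2 scale (SE 0.15, edgeR adjusted p = 7.84e-07), and rose by a further 0.69 on the log2 scale between days 8 and 12. The semaphorin and VEGF co-receptor Nrp2 rose (log2 1.40), as did the endocytic receptor Lrp1, which binds PDGFRβ (0.59). Lrp1 did not pass in mutant lines (log2 0.31, edgeR adjusted p = 0.147). The hyaluronan receptor Cd44 fell by 2.02 on the log2 scale, from 1727 to 431 CPM. The integrin chains Itgb3 (-1.01) and Itgav (-0.65), the caveolar protein Cav1 (-0.81) and the proteoglycan Cspg4 (-0.75), which binds PDGF-A, were also called lower.

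Adaptors and effectors that dock on the activated receptors showed no common direction. In wildtype 9 of 26 rose and 6 fell (median log2 0.12), and in mutant lines 6 rose and 6 fell (0.01). Pik3r1, the regulatory subunit of PI3 kinase that binds the receptors directly, rose 5.00-fold (log2 2.32, SE 0.12, edgeR adjusted p = 1.57e-06), from 51.9 to 261 CPM. Pik3cb, a catalytic subunit of the same kinase, fell by 1.81 on the log2 scale (SE 0.15, edgeR adjusted p = 1.05e-05). The transcription factor Stat3 (0.96) and the docking protein Gab1 (0.94) rose. The adaptor Shb (-1.07) and the SRC family kinases Fyn (-0.76) and Src (-0.44) were lower.

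Among receptor phosphatases, ubiquitin ligases and other negative regulators 2 of 12 rose and 2 fell in both genotypes (median log2 0.05 in wildtype). The cytokine signalling inhibitors Socs3 (1.32) and Cish (0.66) rose, and Sh3kbp1, an adaptor in receptor endocytosis (-1.72), and the phosphatase Ptpn12 (-0.58) were lower. Of 17 genes of the RAS-ERK and PI3K-AKT routes 4 rose and 5 fell in wildtype (median -0.04), and 3 rose and 5 fell in mutant lines. Hras1 (-0.92) and Nras (-0.77), which encode small GTPases, were called lower, with the kinases Akt1 (-0.52) and Map2k1 (-0.41). The kinase genes Braf (0.82) and Akt2 (0.36) and the protein kinase C gene Prkca (0.34) were called higher. Prkca did not pass in mutant lines (log2 0.29, edgeR adjusted p = 0.0781).

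Growth factor induced genes, transcripts that PDGF and serum are known to raise in fibroblasts, were called in both directions. In wildtype 9 of 18 fell and 5 rose (median log2 -0.78 against 0.05 over all genes, of which 47.6% were called), and in mutant lines 8 fell and 4 rose, where 42.1% of all genes were called. Has2, a hyaluronan synthase, had the largest decrease, from 131 to 10.5 CPM, or -3.64 on the log2 scale (SE 0.38, edgeR adjusted p = 3.41e-04). Fosl1 (-2.82), the chemokine Ccl2 (-2.25) and Ier3 (-1.94) were also lower. The immediate early transcription factors Fos (1.56), Egr2 (1.53) and Egr1 (1.16) and the chemokine Cxcl1 (1.12) were called higher instead. Cxcl1 did not pass in mutant lines (log2 0.99, edgeR adjusted p = 0.0590). The list also contains targets of many other growth factors.

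The nearest relatives of the PDGF system, the VEGF family and other class III receptor tyrosine kinases with their ligands, were tested for 13 of 14 genes, of which 2 rose and 4 fell in wildtype (median log2 -0.09) and 3 rose and 4 fell in mutant lines. Of all genes tested, 47.6% were called in wildtype and 42.1% in mutant lines. Figf, which encodes VEGF-D, rose 6.55-fold to 105 CPM, and Flt3l, the FLT3 ligand, rose 5.35-fold from 0.858 to 4.63 CPM. The VEGF receptor genes Flt4 (-3.16) and Kdr (-3.11) and the ligands Csf1 (-1.20) and Kitl (-0.47) were called lower. No gene of these 7 lists was called between genotypes in either state.

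**Figure D5:**
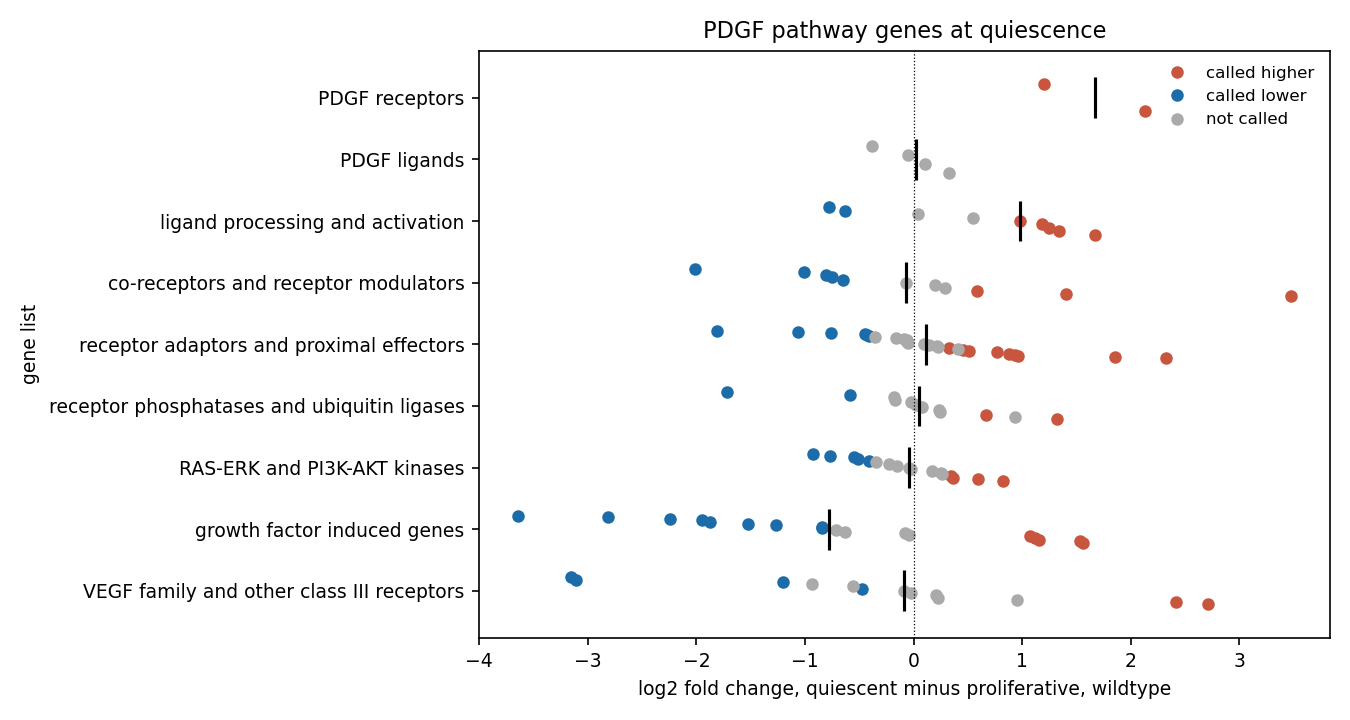
Log2 fold change of each tested gene between quiescence and proliferation in wildtype lines (x axis) by gene list (y axis), red where called higher, blue where called lower and grey where not called, with a black bar at the median of the list and points offset vertically for clarity. Both receptors lie to the right, the ligands lie around 0, and ligand processing genes have a median of 0.98 and growth factor induced genes one of -0.78.

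To see which other genes had profiles like those of the members, mean-centred log2(CPM + 0.5) values were compared over the 16 libraries with 11539 other genes, and the root-mean-square difference was taken as the measure. Nearest to Pdgfra was Zfp521, a zinc finger gene (0.152 log2 units), followed by Tcea3 (0.193) and Pcx (0.197), which encodes pyruvate carboxylase. Nearest to Pdgfrb were the mannosidase gene Man1c1 (0.126), Agrn, which encodes the proteoglycan agrin (0.133), and Nedd9 (0.137). For Pdgfc they were Ddhd1 (0.102), Ak3 (0.104) and Atg3 (0.111), for Pdgfa Rnf10 (0.0795), Upf1 (0.0844) and Ctdnep1 (0.0923), and for Pdgfd Mtus1 (0.158), Renbp (0.160) and Cmah (0.182). Pdgfb was matched least closely, by Gch1 (0.288), Kcnab2 (0.290) and Rdh5 (0.299). The SD of the members themselves on this scale was 0.93 for Pdgfra, 0.55 for Pdgfrb, 0.49 for Pdgfb, 0.32 for Pdgfd, 0.22 for Pdgfc and 0.19 for Pdgfa, so the measure is smaller for genes that vary little. These are likenesses over libraries of 4 lines in which the state of growth sets most of the pattern.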

How the data were processed

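The authors deposited whole-number read counts per gene, not normalized, with a symbol and an NCBI gene ID for each gene. Per the labels' protocols, RNA was treated with DNase and libraries came from a stranded kit. The submitters' processing notes name TopHat2 2.1.1, Bowtie2 2.2.9, HTSeq 0.6.1p1, bcl2fastq 2.18 and build mm9. The sources used here do not state which annotation and strand setting the counting used.

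Days 8, 10 and 12 of each line were summed, giving 8 libraries in 4 groups, and tested with edgeR 4.0.16 in R 4.3.3 (TMM, filterByExpr, robust quasi-likelihood test, 15740 genes, 4 residual degrees of freedom). All 6 members passed the filter. Day 12 minus day 8 used the 16 libraries (15439 genes, 8 residual degrees of freedom). Adjustment was by Benjamini and Hochberg over all genes, with calls under 0.05, and an SE is the log2 value without its sign divided by the root of the F statistic. These fits treat harvests of a line as independent. Since the same line was harvested in each state and on each day, those comparisons are paired by design, and the deviations of a line in proliferation and quiescence correlated at 0.234 in wildtype and 0.242 in mutant lines. Lines of different genotype with the same replicate number correlated at 0.193 in proliferation and 0.109 at quiescence. Across states such lines correlated at -0.265 and -0.0529. The scripts were tested on simulated data.

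CPM values were scaled with TMM. Gene lengths and overlaps came from GENCODE vM21 and promoter windows from RefSeq, both on GRCm38, a build other than that of the counts. The members and gene lists were chosen with earlier results of these data known. Named are all 6 members, Plagl1, up to 4 rising and 4 falling called genes per list with the largest change in wildtype, and the 3 genes nearest in profile to each member with a mean of at least 1 CPM. Lox, Itgav, Map2k1, single markers and the genes named for day 12 were added with their values known. Some genes that met this rule are not reported here. Alternatives were RLE scaling, DESeq2 1.42.0, other filters, the replicate block, and leaving out each line or day, and the contrast averaged over genotypes was added after seeing the data.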

Additional observations from a re-analysis of the deposited data

Results flagged for a closer look

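The contrast of genotypes pointed in opposite directions in the replicate 1 and replicate 2 lines for a pair of ligands, in all 3 quiescent harvests, and the difference between the replicates was not tested. For Pdgfb the mean ratio of mutant to wildtype over days 8, 10 and 12 was 3.8 in the replicate 1 lines and 0.545 in the replicate 2 lines. The counts behind these ratios were 15 to 113 per library. At quiescence the macrophage marker sum was higher in the same 2 lines as Pdgfb, wildtype replicate 2 and mutant replicate 1. At day 2 mutant replicate 1 had the highest marker sum (107 CPM) and the lowest Pdgfb level (0.404 CPM). The part of these markers in the Pdgfb ratios was not tested. For Pdgfc the mean ratio was 0.857 in the replicate 1 lines and 1.3 in the replicate 2 lines. With 2 lines per genotype, these ratios compare single lines, and the 3 quiescent harvests are repeats of the same lines. How many of all genes pointed in opposite directions in this way was not counted, so nothing particular to these ligands is read from it.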

How the results depend on the processing

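Calls of the receptors between states held under every alternative run, with the exception of Pdgfra in wildtype without wildtype replicate 1. Members called in wildtype numbered 2, against 3 by DESeq2 and 1 to 3 when each line was left out. In mutant lines 2 were called, and 3 without mutant replicate 1. Averaged over genotypes 4 were called, and 2 to 3 when each line was left out (2 without wildtype replicate 2, where Pdgfa and Pdgfc no longer passed). For day 12 minus day 8, DESeq2 called 1 member and the replicate block 2, against 0. Blocking on the line changed no other member's call. For comparison, the main fits called 47.6% of all genes in wildtype, 42.1% in mutant lines and 59.3% averaged over genotypes. DESeq2 called 49.6% in wildtype. For day 12 minus day 8 the share of all genes was 3.12% in the main fit, 5.79% by DESeq2 and 6.11% with the block. Genotypes share only replicate numbers, and a block on the number called 0 members, as did every other alternative. Per length, the mean receptor share was 15.02% in wildtype at day 2, and 25.9% and 24.5% in wildtype and mutant lines at quiescence. Some differences that missed the test changed sign (12 of the genotype values at quiescence, 4 in proliferation, 8 of the state change and 3 in each comparison of states), and the cause was not tested. When each line was left out, the genotype difference at quiescence ran from -0.21 to 0.16 for Pdgfra, -0.15 to 0.23 for Pdgfrb, -0.0063 to 0.15 for Pdgfa, -0.36 to 1.21 for Pdgfb, -0.15 to 0.29 for Pdgfc and -0.38 to 0.075 for Pdgfd. In proliferation it ran from -0.28 to 0.74 for Pdgfra, -0.30 to 0.11 for Pdgfa and -0.54 to 0.22 for Pdgfd. The genotype difference of the state change ran from -0.65 to 0.097 for Pdgfra, -0.35 to 0.099 for Pdgfrb, -0.15 to 0.16 for Pdgfc and -0.24 to 0.23 for Pdgfd. The state difference ran from -0.65 to 0.25 in wildtype and from -0.067 to 2.00 in mutant lines for Pdgfb, from -0.13 to 0.32 in mutant lines for Pdgfd, and, averaged over genotypes, from -0.069 to 0.97 for Pdgfb and -0.0074 to 0.20 for Pdgfd. Without day 10, the genotype difference at quiescence was 0.12 for Pdgfra and -0.025 for Pdgfa, and that of the state change 0.14 for Pdgfd. Without day 12, the latter was -0.021 for Pdgfc, and the Pdgfd state difference was -0.0078 in wildtype, -0.094 in mutant lines and -0.051 over both. Without day 8, the Pdgfb state difference in wildtype was 0.018. A filter on a mean of 1 CPM left out Pdgfb. Pdgfb rests on 11 to 113 counts per library, and 2 lines per genotype limit every comparison.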
